A study of Mus musculus with 12 samples.

Results

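The genes described here encode the proteins that coat, join and shape lipid droplets. There are 10 of them among the 55357 genes of the count table, found by their symbols: Plin2, Plin3, Plin4 and Plin5 (perilipins), Cidea, Cideb and Cidec (CIDE proteins), Fitm1 and Fitm2 (fat storage-inducing transmembrane proteins), and G0s2. Their RNA was measured by poly-A RNA sequencing of whole mouse liver. All mice were male C57BL/6J animals that carried PPARa fl/fl, entered at 7 weeks of age, were fed for 6 weeks and were killed at 13 weeks. The KO mice also carried AlbuminCre Tg/+, which deletes the floxed PPARα gene in hepatocytes, and the WT mice were AlbuminCre +/+ controls with an intact PPARα gene. Other liver cells of KO mice keep PPARα. Each genotype received chow or CDAHFD, a high-fat diet of defined amino acids without choline that produces fatty, inflamed and fibrotic liver. This gave 4 WT chow, 3 WT CDAHFD, 2 KO chow and 3 KO CDAHFD libraries, each taken as 1 mouse. The study's methods give equal numbers of mice per group, which these unequal numbers do not match. The groups here are those of the labels, and each comparison with a chow group rests on them.

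A lipid droplet is a core of triglyceride and sterol ester inside a single layer of phospholipid. Perilipins sit on that layer and regulate the access of lipases, CIDE proteins gather at contacts between droplets and move lipid from smaller into larger ones, and the FIT proteins act in the endoplasmic reticulum, where droplets are born. G0S2 binds and inhibits adipose triglyceride lipase, the enzyme that starts triglyceride breakdown. PPARα is the nuclear receptor that switches on fatty acid oxidation in hepatocytes, and several droplet protein genes are known targets of it or of its relative PPARγ.

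The libraries held 29906785 to 43551003 counts, and scaling factors by the trimmed mean of M values (TMM) were 0.729 to 0.827 in WT chow against 1.03 to 1.26 in the other groups. Levels are given as CPM (counts divided by the TMM-scaled library total and put on a common scale), or as RPKM (CPM per kilobase of exon) where genes are compared with each other. Ppara itself averaged 170 ± 72.3 CPM (SD, n = 4) in the chow-fed WT livers and 26.5 ± 17.1 (n = 2) in the chow-fed KO livers. On CDAHFD it averaged 69.5 ± 8.75 (n = 3) in WT and 36.3 ± 15.6 (n = 3) in KO mice. It was 6.40-fold lower in KO on chow (edgeR's quasi-likelihood test, adjusted p = 0.00111) and 1.91-fold lower on CDAHFD (adjusted p = 0.547, not called), and the gene count also takes in exons outside the deleted part. The clock output gene Dbp, singled out after its values were seen, stood at 44.8 to 130 CPM in WT chow replicates 3 and 4, KO chow replicate 2 and KO CDAHFD replicate 3, and at 0.388 to 3.75 CPM in the other 8 libraries. No WT CDAHFD library was of the high-Dbp kind. Ppara stood at 120 and 96.2 CPM in WT chow replicates 1 and 2, and at 238 and 226 in the high-Dbp replicates 3 and 4. In WT CDAHFD it ranged from 59.5 to 75.5 CPM. In KO mice the high-Dbp library had the highest Ppara of its group, at 38.7 CPM (chow) and 51.9 (CDAHFD). The part of the clock in Ppara levels was not tested. Whole liver is a mixture of cells, so fewer cells of a type and less RNA per cell cannot be told apart. Of all tested genes, 25% were called lower in WT CDAHFD and 17% in KO chow than in WT chow. Of 8 hepatocyte markers, all 8 were called lower in WT CDAHFD and 4 in KO chow. Their summed level on chow was 92180.7 to 111603 CPM (WT) and 78452.8 to 91750.6 (KO), and on CDAHFD 49050.5 to 58398.4 (WT) and 46724.9 to 61476.7 (KO).

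Promoter sequence is shown for the genes whose levels differed most between groups on the log2 scale (Fitm1, Plin4 and Cidec). It is also shown for both genes that held the nuclear receptor core motif, since PPARα was the gene deleted. Sequences are RefSeq bases of GRCm38.p6 upstream of the annotated start, on the strand of the gene, from which bases overlapping an annotated exon were left out. Capitals mark the core motif AGGTCA or its reverse complement, and a sequence without capitals has no match.
Plin2, chr4:86670061-86670309, minus strand: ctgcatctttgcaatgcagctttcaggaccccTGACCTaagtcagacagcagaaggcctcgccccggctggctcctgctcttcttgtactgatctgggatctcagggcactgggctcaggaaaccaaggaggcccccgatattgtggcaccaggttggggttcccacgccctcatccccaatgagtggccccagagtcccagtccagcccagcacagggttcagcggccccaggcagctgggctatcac
Plin5, chr17:56117597-56117798, minus strand: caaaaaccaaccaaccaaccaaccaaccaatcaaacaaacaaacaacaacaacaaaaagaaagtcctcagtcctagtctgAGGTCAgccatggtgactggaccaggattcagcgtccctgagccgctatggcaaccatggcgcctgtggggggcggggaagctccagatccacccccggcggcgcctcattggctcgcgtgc
Fitm1, chr14:55575424-55575616, plus strand: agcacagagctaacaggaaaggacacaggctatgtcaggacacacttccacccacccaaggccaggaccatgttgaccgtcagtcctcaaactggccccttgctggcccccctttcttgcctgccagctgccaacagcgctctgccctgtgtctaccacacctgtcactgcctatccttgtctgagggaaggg
Plin4, chr17:56109804-56110032, minus strand: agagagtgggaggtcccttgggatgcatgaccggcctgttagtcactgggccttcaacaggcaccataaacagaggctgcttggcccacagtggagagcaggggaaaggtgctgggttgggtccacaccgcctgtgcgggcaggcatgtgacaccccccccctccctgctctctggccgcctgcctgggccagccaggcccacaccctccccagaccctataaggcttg
Cidec, outer start, chr6:113435761-113436010, minus strand: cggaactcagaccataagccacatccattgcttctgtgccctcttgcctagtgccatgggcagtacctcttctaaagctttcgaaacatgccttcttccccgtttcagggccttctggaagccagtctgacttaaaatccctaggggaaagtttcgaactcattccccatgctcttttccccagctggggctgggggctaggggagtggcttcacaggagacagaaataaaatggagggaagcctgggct
Cidec, inner start, chr6:113434765-113435014, minus strand: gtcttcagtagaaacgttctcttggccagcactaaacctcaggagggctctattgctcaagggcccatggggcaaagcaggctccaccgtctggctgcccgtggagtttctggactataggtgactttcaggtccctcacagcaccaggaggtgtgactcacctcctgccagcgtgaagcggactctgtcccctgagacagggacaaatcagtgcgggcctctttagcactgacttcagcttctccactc

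The core motif AGGTCA, searched on both strands, lay 218 bases before the start of Plin2 on the opposite strand and 170 bases before the outer start of Plin5 on the same strand. Plin5 also has an inner start, whose window holds no match. The core motif was present in 2 of the 11 windows of these genes, none of which belongs to Cidea, and in 14.0% of all 32851 promoter windows. The full direct repeat that PPAR dimers recognise, AGGTCANAGGTCA, was in 0 of the 11 windows and in 0.033% of all windows, and the looser AGGNCANAGGNCA and NGGNCANAGGNCA were also in 0 of the 11, against 0.338% and 0.694% of all windows. The E-box CACGTG was in 0 of 11 and 6.02% of all windows, and the sterol element core TCACNCCAC in 0 of 11 and 1.05%. Each window searched was the 250 bases upstream of a start, exonic bases included, so sites elsewhere could not be found. These counts say only which letters stand in these windows. The core motif is part of the direct repeat, so those searches overlap. Cidec is annotated with both an outer and an inner start, and the counts add up RNA from either.

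Among perilipins, Plin2, the coat protein of most hepatocyte droplets, supplied most of the transcripts in every library, while the smaller members moved. In WT mice Plin2 ranged from 482 to 902 CPM on chow and from 662 to 914 on CDAHFD. In KO mice it ranged from 563 to 720 CPM on chow and from 448 to 475 on CDAHFD. The KO CDAHFD livers were the lowest and closest together, and the 3 other groups overlapped. The log2 difference of KO CDAHFD from WT CDAHFD was -0.79 (SE 0.21), with an adjusted p of 0.212 in edgeR's quasi-likelihood test over 17358 genes. The WT diet difference was 0.25 (SE 0.20, adjusted p = 0.308) and the interaction -0.74 (SE 0.31, adjusted p = 0.104). Without WT chow replicate 3 they were 0.46 (adjusted p = 0.0499) and -0.93 (adjusted p = 0.0257), and with library size scaling 0.81 (adjusted p = 0.00488) and -1.09 (adjusted p = 0.0233). Without the filter the interaction had an adjusted p of 0.0253. On the per-length scale the 4 perilipins of WT mice summed to 226 ± 59.8 RPKM on chow (SD, n = 4) and 275 ± 37.7 on CDAHFD (n = 3). Those of KO mice summed to 212 ± 33.7 (n = 2) and 161 ± 8.20 (n = 3). Plin2 made up 78.9% to 87.0% of that sum in all 12 libraries. Plin5 made up 9.02% to 11.3% (chow) and 6.06% to 8.24% (CDAHFD) of it in WT mice, and 4.76% to 4.84% (chow) and 3.17% to 5.197% (CDAHFD) in KO mice, so that each of the 5 KO libraries was below each of the 7 WT libraries. Plin3 made up 4.51% to 8.25% in WT chow and 11.7% to 14.5% in KO CDAHFD.

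**Figure D1:**
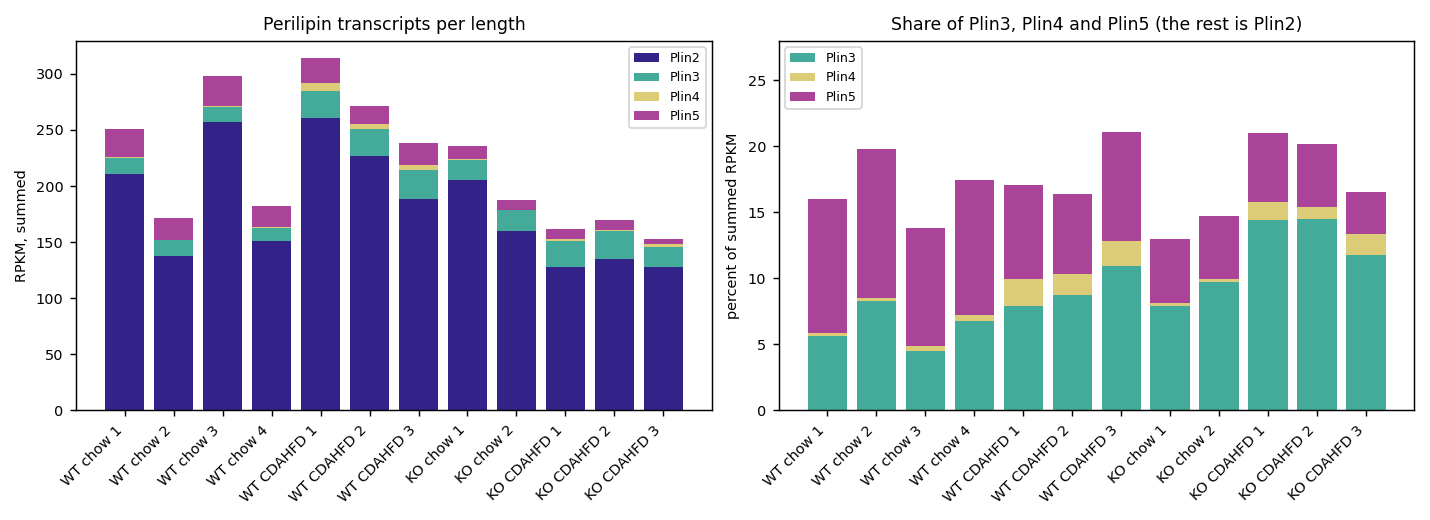
Perilipin transcripts in each of the 12 libraries. Left, stacked bars of RPKM from 0; right, the share of the summed RPKM taken by Plin3, Plin4 and Plin5 in percent. Plin2 fills 78.9% to 87.0% of every bar on the left, and on the right the Plin5 share is smallest in the 5 KO libraries.

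Plin3, a perilipin that is also found in the cytosol and joins nascent droplets, rose with either change on its own. Its levels were 53.1, 53.5, 50.9 and 46.8 CPM in WT chow replicates 1 to 4. They were 93.6, 89.5 and 98.5 CPM in WT CDAHFD and 70.6 and 69.0 CPM in KO chow. KO CDAHFD livers had 88.2, 93.0 and 68.0 CPM. Neither WT CDAHFD nor KO chow overlapped WT chow. The diet difference in WT mice was 0.88 on the log2 scale (SE 0.11, adjusted p = 2.95e-05). The genotype difference on chow was 0.45 (SE 0.12, adjusted p = 0.0122). The diet difference was smaller in KO mice by 0.63 on the log2 scale (interaction -0.63, SE 0.17, adjusted p = 0.0193). Without KO chow replicate 1 the KO chow call and the interaction were lost (adjusted p of 0.057 and 0.0528), and without the 4 high-Dbp libraries the interaction was lost (adjusted p = 0.0607).

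Plin4, a perilipin best known from adipocytes, was a low transcript on chow that rose on CDAHFD in both genotypes. WT chow livers had 4.23, 2.46, 5.47 and 4.86 CPM. WT CDAHFD livers had 37.1, 25.4 and 26.7 CPM. KO chow livers had 3.21 and 2.74 CPM, and KO CDAHFD livers 12.7, 8.56 and 14.5 CPM. Every CDAHFD library was above every chow library, and every WT CDAHFD library was above every KO CDAHFD library. The diet difference was 2.81 on the log2 scale in WT (SE 0.26, adjusted p = 1.8e-06) and 2.01 in KO (SE 0.32, adjusted p = 0.00489), the one member called between KO CDAHFD and KO chow. Of all genes, 6.19% were called in that comparison, 3.76% higher and 2.44% lower. Without KO chow replicate 2 that KO call was lost (adjusted p = 0.0527). Plin4 was 2.49-fold lower in KO CDAHFD than in WT CDAHFD (adjusted p = 0.0627, not called). Leaving out the 4 high-Dbp libraries, the adjusted p of this difference was 0.0433, and without WT chow replicate 2 it was 0.0244. The interaction of genotype and diet for Plin4 was -0.80 (SE 0.40, adjusted p = 0.17), and -1.07 (adjusted p = 0.0396) with the clock covariate.

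Plin5, which ties droplets to mitochondria in oxidative tissues, followed genotype on either diet. WT chow livers had 53.0, 40.4, 56.1 and 38.8 CPM, and WT CDAHFD livers 46.8, 34.4 and 41.0. KO chow livers had 23.8 and 18.7 CPM, and KO CDAHFD livers 17.5, 17.0 and 10.1. No KO library reached the lowest WT library. Plin5 was 2.22-fold lower in KO than in WT on chow (log2 -1.15, SE 0.24, adjusted p = 0.00219) and 2.74-fold lower on CDAHFD (log2 -1.45, SE 0.22, adjusted p = 0.0108). The second call was lost without WT CDAHFD replicate 1 (adjusted p = 0.0721), and the first with library size scaling and no high-Dbp library (-0.61, adjusted p = 0.0526). The diet difference was -0.21 in WT (95% interval -0.64 to 0.22) and -0.51 in KO (-1.03 to 0.0048), and neither was called. Plin5 and Plin4 lie on the same strand of chromosome 17 with 1797 bases between them, and Plin3 lies 159879 bases beyond Plin5.

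**Figure D2:**
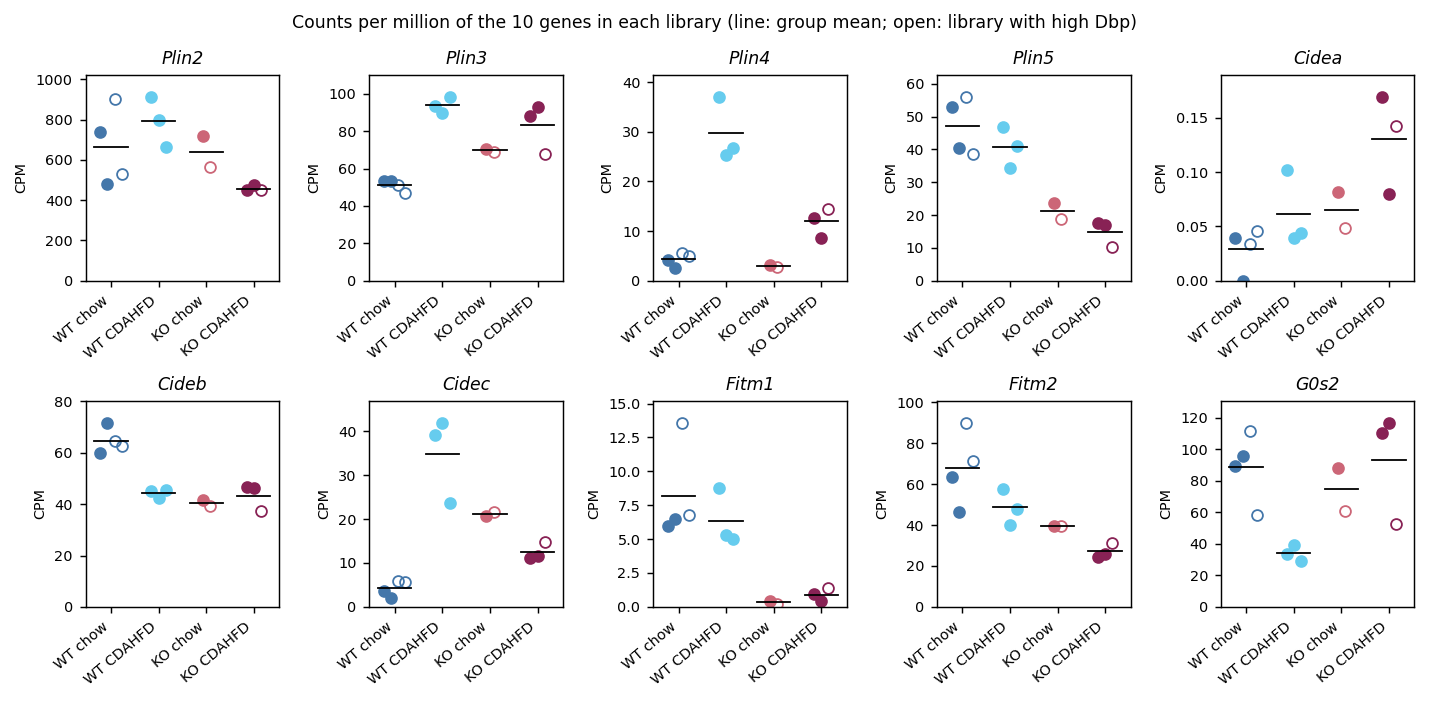
CPM of each of the 10 genes (y axes, linear, from 0) in each library, grouped by genotype and diet. Points are libraries, lines are group means, and open points are the 4 libraries with high Dbp. Plin5 and Fitm1 are lower in every KO library than in any WT library, and Cidec is lowest in WT chow.

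The CIDE genes behaved differently from each other. Cidec, also called Fsp27, is the member that builds large droplets in fat cells and steatotic hepatocytes. Its levels were 3.73, 2.01, 5.80 and 5.64 CPM in WT chow and 39.2, 41.9 and 23.6 CPM in WT CDAHFD. They were 20.7 and 21.7 CPM in KO chow and 11.2, 11.6 and 14.7 CPM in KO CDAHFD. The 4 groups did not overlap, and WT chow was the lowest. Cidec was 4.96-fold higher in KO chow (log2 2.31, SE 0.32, adjusted p = 0.00011) and 8.17-fold higher in WT CDAHFD (log2 3.03, SE 0.30, adjusted p = 3.8e-06) than in WT chow. In KO mice the diet difference was -0.76 on the log2 scale (SE 0.33, adjusted p = 0.196, not called). The interaction was -3.79 (SE 0.45, adjusted p = 7.75e-05), and it was past the threshold in each of the 12 fits that left out 1 library, from -4.01 to -3.55. Between KO CDAHFD and WT CDAHFD the difference was -1.48 (SE 0.31, adjusted p = 0.0736, not called). Its adjusted p was 0.0385 without the 4 high-Dbp libraries and 0.0179 without WT chow replicate 2.

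Cideb, the CIDE protein of normal hepatocytes, which serves VLDL lipidation and droplet fusion, was highest in WT chow. It ranged from 60.1 to 71.6 CPM there and from 42.5 to 45.5 in WT mice on CDAHFD. In KO mice it ranged from 39.1 to 41.6 on chow and from 37.3 to 46.5 on CDAHFD. WT chow did not overlap any other group, and the other 3 groups lay close together. It was 1.61-fold lower in KO chow (adjusted p = 0.000678) and 1.46-fold lower in WT CDAHFD (adjusted p = 0.000806), with an interaction of 0.65 (SE 0.16, adjusted p = 0.0117) that was lost without KO chow replicate 2 (adjusted p = 0.0541) and with library size scaling (0.29, adjusted p = 0.167). Scaled by library size alone, the KO chow difference was -0.28 (adjusted p = 0.0529) and the WT CDAHFD difference 0.013. Of the exon length of Cideb, 76.3% overlaps exons of Nop9 on the opposite strand. The study's methods name no step that marks strand, and how the counting treated shared reads is not given. Reads of Cideb and Nop9 can therefore not be told apart with certainty. Nop9 itself held 37.8% to 68.7% as many counts as Cideb, and its log2 difference in KO chow was -0.13 (SE 0.10, adjusted p = 0.362) and in WT CDAHFD -0.33 (SE 0.09, adjusted p = 0.00882).

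Cidea, the CIDE gene of brown fat, was at the edge of detection, with 0 to 1 counts per WT chow library, 2 to 5 in WT CDAHFD, 2 to 3 in KO chow and 3 to 7 in KO CDAHFD. It did not pass the filter on low counts and was not tested. A count of 0 allows up to 3 counts, or 0.0944 CPM in WT chow replicate 2, the library at 0. Adipocyte-defining genes were near absent too. Lep and Ucp1 were at 0 in all 12 libraries, and Adipoq, Plin1, Cfd and Retn had at most 4 counts in any library. The remaining adipocyte marker, Pck1, is also a hepatocyte gene and makes up nearly all of that list's summed level, which on chow was 2812.79 to 5353.61 CPM (WT) and 2199.01 to 2448.53 (KO), and on CDAHFD 630.429 to 1606.31 (WT) and 572.113 to 1364.85 (KO).

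Of the FIT genes, Fitm1 was called lower in KO mice on both diets and Fitm2 on chow alone. On the log2 scale Fitm1 showed the widest range of group means among the 9 genes that passed the filter. Fitm1 is best known from skeletal muscle. WT chow livers had 5.94, 6.48, 13.6 and 6.79 CPM, and WT CDAHFD livers 8.75, 5.30 and 5.004. KO chow livers had 0.435 and 0.218 CPM, from 16 and 9 counts, and KO CDAHFD livers 0.921, 0.401 and 1.36 CPM. The highest KO library was below the lowest WT library. Fitm1 was 25.2-fold lower in KO chow (log2 -4.65, SE 0.59, adjusted p = 5.09e-05) and 7.04-fold lower in KO CDAHFD (log2 -2.82, SE 0.44, adjusted p = 0.0136) than in WT on the same diet. The CDAHFD call was lost without WT CDAHFD replicate 1, KO CDAHFD replicate 1 or KO CDAHFD replicate 2 (adjusted p of 0.0789, 0.0838 and 0.0768). The diet difference in WT was -0.37 (95% interval -1.16 to 0.42), and 0.0061 without WT chow replicate 3. The interaction was 1.84 (SE 0.71, adjusted p = 0.0808), with an adjusted p of 0.0361 without KO CDAHFD replicate 2, 0.0181 without the filter and 0.0255 with DESeq2. Skeletal muscle markers summed to at most 0.272 CPM in any library, with Myh4 at 0 in all. The antisense gene Gm15932 overlaps 11.2% of Fitm1's exon length and held 51 and 27 counts in KO chow, more than Fitm1 there. How the counting assigned reads from the shared stretch is not given.

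Fitm2, the widely expressed FIT protein, ranged from 46.6 to 89.9 CPM in WT chow and from 40.2 to 57.7 in WT CDAHFD. It was 39.5 CPM in each KO chow library and 24.3 to 31.5 in KO CDAHFD. All KO values were below all WT values. It was 1.72-fold lower in KO chow (log2 -0.78, SE 0.22, adjusted p = 0.0149), a call that was lost without KO chow replicate 1, without KO chow replicate 2 and without the 4 high-Dbp libraries (adjusted p of 0.0942, 0.0745 and 0.152). It was also lost with library size scaling (-0.37, adjusted p = 0.186), alone or without the high-Dbp libraries (-0.12, adjusted p = 0.718). The WT diet difference of -0.48 (SE 0.19) had an adjusted p of 0.054, which was 0.0111 without WT chow replicate 2, 0.0389 without WT CDAHFD replicate 1 and 0.0427 without the filter. On CDAHFD the KO difference was -0.84 (SE 0.21, adjusted p = 0.154).

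G0s2, the lipase inhibitor, was lowered by CDAHFD in WT mice and not detectably in KO mice. WT chow livers had 89.3, 95.8, 112 and 58.5 CPM, and WT CDAHFD livers 33.7, 39.3 and 29.2. KO chow livers had 88.5 and 60.8 CPM, and KO CDAHFD livers 110, 117 and 52.9. The WT CDAHFD group was below every other library. The WT diet difference was -1.38 (SE 0.28, adjusted p = 0.00117) and that in KO 0.32 (95% interval -0.37 to 1.02, adjusted p = 0.6). Their difference was 1.71 (SE 0.43, adjusted p = 0.0119), which was lost without KO chow replicate 2 (adjusted p = 0.0656). The high-Dbp libraries were the lowest of their group in KO CDAHFD (replicate 3) and KO chow (replicate 2), while in WT chow high-Dbp replicate 3 was the highest and high-Dbp replicate 4 the lowest. G0s2 was 2.74-fold higher in KO CDAHFD than in WT CDAHFD with an adjusted p of 0.0628. That p was 0.000498 without the 4 high-Dbp libraries, 0.0104 without KO CDAHFD replicate 3 and 0.0376 without WT chow replicate 4. The part of the clock in these values was not tested beyond those fits.

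**Figure D3:**
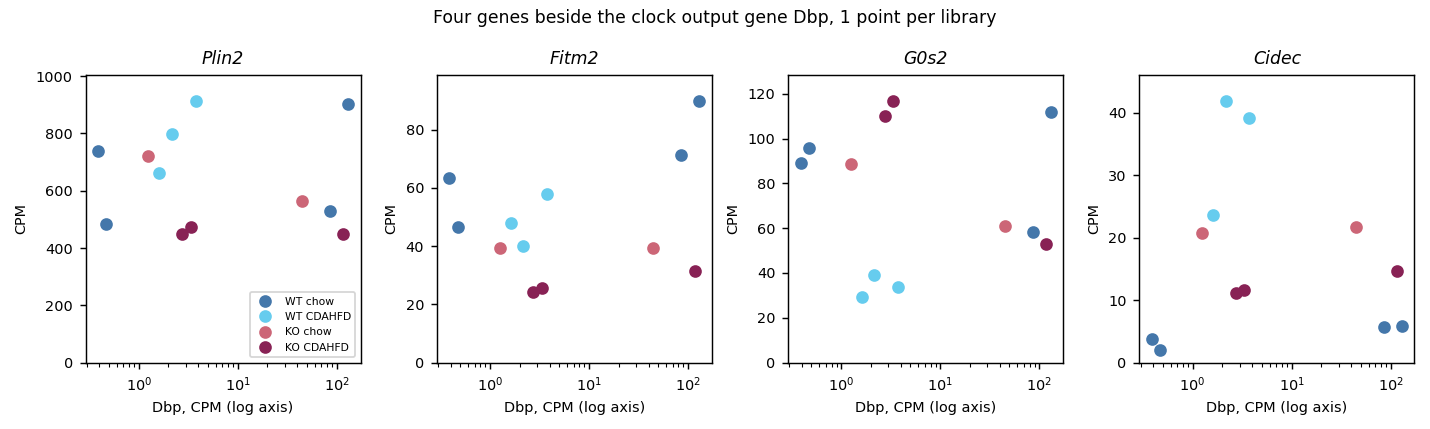
CPM of Plin2, Fitm2, G0s2 and Cidec (y axes, from 0) against CPM of Dbp (x axis, log scale), 1 point per library, coloured by group. The 4 libraries at 44.8 CPM of Dbp or above are 2 WT chow, 1 KO chow and 1 KO CDAHFD library, and their G0s2 is the lowest of the group in both KO groups but both the highest and the lowest of the group in WT chow.

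Ranked by mean RPKM, Plin2, G0s2 and Cideb were the top 3 genes in every group, at 189 ± 55.5, 102 ± 25.6 and 43.5 ± 3.34 RPKM in WT chow (SD, n = 4). The place of Cideb is uncertain, since 76.3% of its exon length overlaps exons of Nop9. The order below them changed. In WT chow it ran Plin5 (22.5 ± 4.20), Fitm2 (17.1 ± 4.53), Plin3 (13.5 ± 0.812), Fitm1 (8.44 ± 3.71), Cidec (2.31 ± 0.964), Plin4 (0.736 ± 0.225) and Cidea (0.0265 ± 0.0182), and the neighbours Plin5 and Fitm2, and Fitm2 and Plin3, lay within their spread. In KO CDAHFD, Plin2 (130 ± 4.38) and G0s2 (107 ± 40.4) were within their spread of each other (n = 3). There Plin3 stood at 21.9 ± 3.51 RPKM, and Plin5 (7.13 ± 1.98), Fitm2 (6.85 ± 0.954) and Cidec (6.72 ± 1.03) were within their spread of each other (n = 3).

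Counted over the 9 genes that passed the filter, KO chow differed from WT chow in 6 (2 higher, 4 lower), where 39% of all tested genes were called, 22% higher and 17% lower. WT CDAHFD differed from WT chow in 5 (3 higher, 2 lower), against 51.1% of all genes, 26.1% higher and 25% lower. KO CDAHFD differed from WT CDAHFD in 2, Plin5 and Fitm1, both lower, where only 62 genes or 0.357% were called, 0.0864% higher and 0.271% lower. At an unadjusted p under 0.05 that comparison held 1523 genes. DESeq2 called 250 genes and 7 of the members there, adding Plin2, Plin4, Cidec and Fitm2 as lower and G0s2 as higher, while without WT CDAHFD replicate 1 edgeR called 26 genes and 0 members. The interaction was called for 4 (Plin3, Cideb, Cidec and G0s2), against 23.1% of all genes, 8.63% with a higher and 14.5% with a lower diet difference in KO mice. The median log2 difference of the 9 genes was -0.51 for KO against WT on chow, -0.21 for CDAHFD against chow in WT and -0.84 between KO CDAHFD and WT CDAHFD, beside medians of 0.0022, -0.048 and 0.0086 over all tested genes. KO chow and WT CDAHFD were both compared with the same WT chow libraries, so those counts are not independent of each other.

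**Figure D4:**
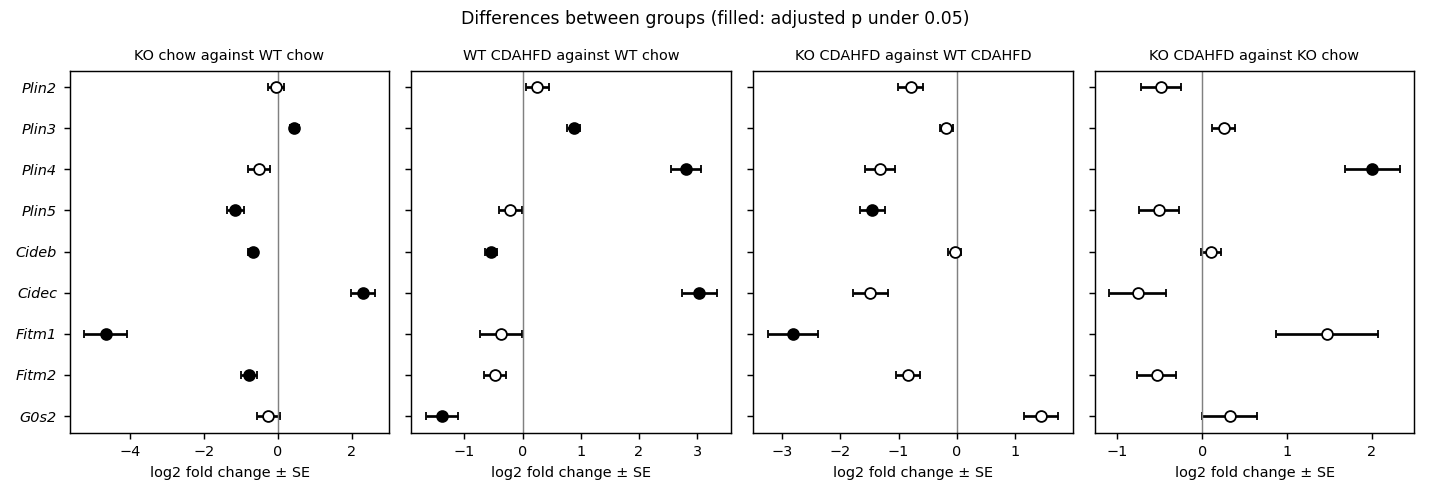
Log2 fold change with SE (x axis) of the 9 tested genes in 4 comparisons, with filled points for an adjusted p under 0.05. Fitm1 and Plin5 lie to the left of 0 and are filled in both KO against WT panels, while Cidec is far to the right in the KO chow and WT CDAHFD panels only.

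Other genes of the lipid store moved in both directions. The counts below are on the TMM scale, and with library size scaling, under which they were not recounted, the median over all tested genes was 0.40 in KO chow and 0.51 in WT CDAHFD. Beside them, 22% of all tested genes were called higher and 17% lower in KO chow, and 26.1% and 25% in WT CDAHFD. Of 17 tested genes for droplet biogenesis and droplet membrane proteins, 5 were higher and 6 lower in KO chow (median log2 difference -0.16). In WT CDAHFD 3 were higher and 8 lower (median -0.23). Hsd17b11, a droplet-bound dehydrogenase, was 2.35-fold lower in KO chow (adjusted p = 8.87e-06) and 2.21-fold lower in KO CDAHFD than in WT CDAHFD (adjusted p = 0.000807). Ldah, a droplet-associated hydrolase, was 1.76-fold lower in WT CDAHFD (adjusted p = 2.75e-05), and Lpcat1, which makes phosphatidylcholine for membranes, was higher there (log2 1.43, SE 0.20, adjusted p = 7.08e-05). Of 8 droplet lipases and cofactors, 1 rose and 4 fell in KO chow, and 1 rose and 5 fell in WT CDAHFD. Ces1d and Ces1f, carboxylesterases that hydrolyse triglyceride, were 4.09-fold and 4.88-fold lower in WT CDAHFD (adjusted p of 1.12e-05 and 5.42e-05), while Lipa, the lysosomal acid lipase, was 1.91-fold higher (adjusted p = 3.05e-05). In KO chow Ldah, Ces1d and Ces1f were also lower, by 1.58-fold, 2.24-fold and 2.26-fold (adjusted p of 0.00068, 0.00312 and 0.0161). Lpcat1 and Lipa were also higher there, by 1.86-fold and 1.34-fold (adjusted p of 0.00709 and 0.0228).

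The counts of this paragraph stand beside 22% of all tested genes called higher and 17% lower in KO chow. In WT CDAHFD these shares were 26.1% and 25%. Of 8 genes for the last steps of triglyceride synthesis, 1 rose in each comparison and 3 fell in KO chow and 4 in WT CDAHFD. The riser was Gpat3, an acyltransferase, at 1.72 ± 0.252 CPM in chow-fed WT livers against 27.0 ± 4.36 in chow-fed KO livers and 21.1 ± 3.73 in WT livers on CDAHFD (adjusted p of 1.05e-07 and 5.07e-08). Dgat2, which adds the last acyl chain, was 2.14-fold and 2.33-fold lower (adjusted p of 0.000178 and 1.38e-05), and Gpat4, another acyltransferase, 1.49-fold and 2.01-fold lower (adjusted p of 0.0196 and 0.000147). Among 5 tested genes of the PPARγ and adipogenic program, the same number, 4, rose with the deletion on chow and with CDAHFD in WT. Pparg, the receptor itself, was 4.23-fold and 4.96-fold higher (adjusted p of 5.89e-05 and 7.23e-06). Cd36, a fatty acid carrier, was 6.50-fold and 18.5-fold higher (adjusted p of 1.61e-06 and 2.41e-08), and Lpl, lipoprotein lipase, 10.1-fold and 21.2-fold higher (adjusted p of 2.61e-06 and 1.18e-07). Of 12 PPARα targets, 3 rose and 3 fell in KO chow, and 3 rose and 2 fell in WT CDAHFD. Acot1, a thioesterase, was 5.42-fold higher in KO chow (adjusted p = 2.32e-05).

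**Figure D5:**
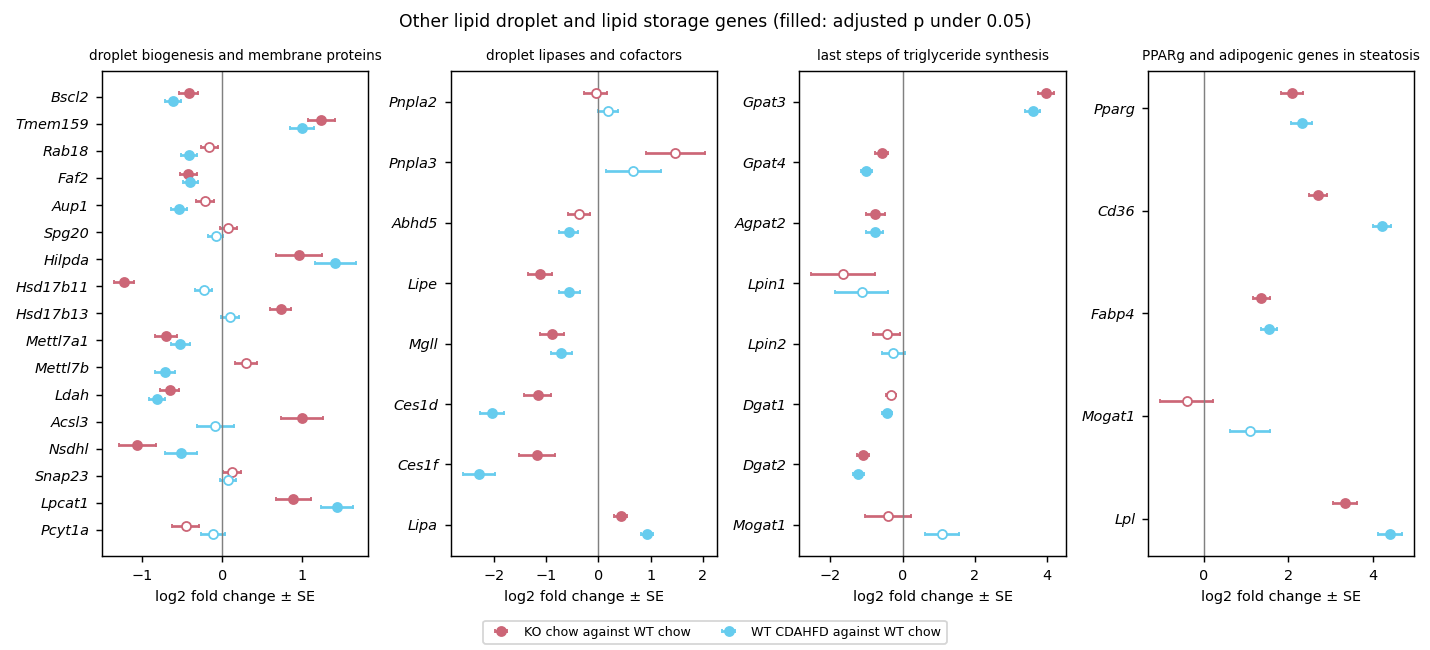
Log2 fold change with SE (x axes) of other lipid droplet and lipid storage genes in KO chow and WT CDAHFD, each against WT chow, with filled points for an adjusted p under 0.05. Gpat3, Pparg, Cd36 and Lpl lie right of 0 in both comparisons, and the carboxylesterases Ces1d and Ces1f left.

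Markers of other liver cells moved with the same groups. Of all tested genes, 22% were called higher in KO chow and 26.1% in WT CDAHFD, each against WT chow. Macrophage markers were higher than in WT chow for 7 of 8 genes in KO chow, and likewise for 7 of 8 in WT CDAHFD. Their summed level was 271 to 511 CPM (WT) and 1086 to 1257 (KO) on chow, and 1928 to 2703 (WT) and 1998 to 2182 (KO) on CDAHFD. Stellate cell markers were higher for 5 and 4 of 8 genes and summed to 169 to 264, 993 to 1058, 1086 to 1135 and 1181 to 1651 CPM in the same order of groups. Cholangiocyte markers were higher for 5 and 6 of 6 genes, and summed to 46.4 to 79.5, 166 to 289, 361 to 581 and 572 to 888 CPM, again in that order. Spp1 made up most of the cholangiocyte sum, with means of 47.3, 196, 424 and 681 CPM in that order. Col3a1 weighed heavily in the stellate sum, with means of 30.6, 506, 571 and 728 CPM. The sums therefore lean on single genes. Plin3, Plin4 and Cidec were higher in WT CDAHFD, where these lists were higher too. In KO CDAHFD the summed levels of these lists overlapped those of WT CDAHFD or exceeded them. Plin4 and Cidec were lower in KO CDAHFD than in WT CDAHFD, but neither difference was called (edgeR's test, adjusted p of 0.0627 and 0.0736). The part of those cells in the droplet gene levels was not tested.

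Among 12904 genes with a mean of 50 counts or more, those most like each of the 3 widest-ranging members over the 12 libraries were found by Pearson's r of log2 CPM, as a description. Libraries of 1 group share their condition, so these values mostly restate the group pattern. For Fitm1 they were Rarres1 (r = 0.930), Trappc9 (0.926) and Arel1 (0.920). Rarres1 stood at 45.1 ± 2.75 CPM (chow) and 36.7 ± 7.46 (CDAHFD) in WT mice, and at 3.14 ± 0.399 (chow) and 11.99 ± 1.95 (CDAHFD) in KO mice. For Plin4 they were Pdzrn3 (r = 0.962), Atp9a (0.961) and Tmem8 (0.951), and for Cidec they were Rock2 (r = 0.977), Slc35f5 (0.968) and Sh3glb1 (0.966).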

How the data were processed

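Liver RNA of 12 mice was sequenced as poly-A libraries on a NovaSeq, and the study's methods name no step that marks strand. Per the study's methods, reads were checked with FastQC 0.11.5 and aligned to GRCm38 with STAR 2.7.3a. The deposited table holds raw read counts per Ensembl gene, made by the authors; the counting program and annotation release are not given in the sources used here. Symbols, positions and exon lengths came from GENCODE M21, which matched 94.08% of identifiers and 99.691% of counts. Of 55357 genes, 30104 had a count and 17358 passed filterByExpr (minimum count 10). Groups follow the labels. Nothing in the labels links libraries to a batch or day, and each library is taken as 1 mouse.

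Counts were tested with edgeR 4.0.16 (TMM, a mean per group over all 12 libraries, quasi-likelihood F test, Benjamini-Hochberg over all 17358 genes, threshold 0.05). SE is the log2 fold change divided by the root of F, and intervals are 95%. The alternatives were library size scaling, RLE factors, no filter, DESeq2 1.42.0, a replicate block, a clock score covariate and leaving out each library. Leaving out the 4 high-Dbp libraries, with TMM and with library size scaling, was added after the data were seen. The members and gene lists were chosen with earlier results of these data known. All 10 members are named; of each other list, up to 3 genes with the smallest adjusted p in KO chow or WT CDAHFD against WT chow; and for the 3 members with the widest range of group means, the 3 genes with the highest r (prior count 2). Some genes that this rule names are not reported here. Same-numbered libraries were checked for pairing: 3 of 15 pairs correlated over 0.1 (-0.24 to 0.27). The check used the numbers of the sample titles, while the counts of KO chow replicate 2 are labelled with number 3. It therefore cannot decide whether numbers pair the samples. No libraries agreed within sampling noise. The edgeR step was also tested on simulated data. R 4.3.3 and Python with pandas 2.3.3 and matplotlib 3.10.9 were used.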

Additional observations from a re-analysis of the deposited data

Results flagged for a closer look

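Fitm1 in WT chow held a library far from the other 3. Replicate 3 had 13.6 CPM, and its gap to the nearest library was 0.889 of the group's range, above Dixon's 95% critical value for 4 samples. Chance flags about 1 in 20 such groups. Without that library the Fitm1 difference in KO chow was still past the threshold, as it was in all 12 fits that left out 1 library.

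The diet difference itself differed between KO and WT mice for 4 genes, by the interaction term of edgeR's test: Cidec (log2 -3.79, adjusted p = 7.75e-05), G0s2 (1.71, adjusted p = 0.0119), Cideb (0.65, adjusted p = 0.0117) and Plin3 (-0.63, adjusted p = 0.0193). The Cidec call held in all 12 fits that left out 1 library, and each of the other 3 was lost in 1 of them.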

How the results depend on the processing

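Group sizes of 2 to 4 libraries limit every count below. The count of genes called between KO CDAHFD and WT CDAHFD was 62, and it was 215 without the filter, 250 with DESeq2, 167 with the clock covariate, 113 without the 4 high-Dbp libraries, 115 without those and with library size scaling, and 26 to 75 over the fits leaving out 1 library (26 without WT CDAHFD replicate 1 or KO CDAHFD replicate 2). The members called there were 2, and in the same order 7, 7, 6, 5, 4 and 0 to 4. Between KO CDAHFD and KO chow 1075 genes were called, against 640 with the replicate block, 1626 with the clock covariate, 1903 with DESeq2, 600 without the high-Dbp libraries and 233 (without KO chow replicate 1) to 1437 leaving out 1 library, and 1 member, against 3 with the clock covariate and 0 to 1 leaving out 1 library. KO chow against WT chow gave 6763 genes, against 4320 (without KO chow replicate 1) to 7128 leaving out 1 library, and 6 members. Of these members, Plin3 and Fitm2 were lost without KO chow replicate 1, and Fitm2 without KO chow replicate 2. Cideb and Fitm2 were lost with library size scaling. Without the high-Dbp libraries and with library size scaling, KO chow against WT chow gave 6688 genes and 3 members. The interaction held 4011 genes and 4 members. Leaving out 1 library it held 2828 to 4630 genes and 2 to 5 members. The fit with 2 members, without KO chow replicate 2, called 3320 genes. The cause of these shifts was not tested.

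Library size scaling moved the median of all genes to 0.40 (genotype, chow), 0.51 (diet, WT) and -0.34 (interaction), and the share of higher calls from 56.4% to 86.0%, from 51.0% to 88.6% and from 37.3% to 13.7%. For KO CDAHFD against KO chow the share went from 60.7% to 90%. Under it Plin2 (0.35) and G0s2 (0.15) in KO chow, Plin5 (0.34), Cideb (0.013), Fitm1 (0.19) and Fitm2 (0.079) in WT CDAHFD, and Cideb between the CDAHFD groups (0.014) changed sign. With library size scaling and no high-Dbp library, Plin2 (0.59), Plin4 (0.32) and G0s2 (0.30) in KO chow, Plin5 (0.31), Fitm1 (0.54) and Fitm2 (0.33) in WT CDAHFD, and Cideb between the CDAHFD groups (0.076) did. With TMM and no high-Dbp library, Plin2 in KO chow (0.24), Fitm1 in WT CDAHFD (0.032) and Cideb between the CDAHFD groups (0.063) did, and with the clock covariate Cideb (0.00597). Leaving out 1 library, Plin2 in KO chow ranged from -0.22 to 0.14, Fitm1 in WT CDAHFD from -0.67 to 0.0061, Cideb between the CDAHFD groups from -0.087 to 0.065 and the Fitm2 interaction from -0.22 to 0.083.

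The replicate numbers are those of the sample titles, and the pairing check could not decide whether they link libraries. With them as a block, Plin3 was lost in KO chow (0.37, adjusted p = 0.077) and in the interaction (-0.56, adjusted p = 0.0693), and Plin4 was gained between the CDAHFD groups (-1.35, adjusted p = 0.0178) and in the interaction (-1.06, adjusted p = 0.041).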
